A study of Mus musculus with 6 samples.

Results

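The forkhead (Fox) genes encode transcription factors that share a winged-helix DNA-binding domain. Members were taken as every protein-coding gene of the deposited count table whose symbol is Fox, a subfamily letter from a to s and a number, which gave 44 of the 54532 genes in the table. The study set 3 female against 3 male libraries of MAEC, the label for endothelial cells of the mouse aorta, all wild type, and sequenced poly-A RNA. Both sexes grew in F-12 with 20% fetal bovine serum, antibiotics, heparin and growth factors for endothelial cells, without treatment. The strain and age of the mice, and whether MAEC here is a line or freshly isolated, are not stated in the labels. Since the labels do not tie the replicates to different animals or dishes, the p-values below cover only the spread among these 6 libraries, possibly a technical one.

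Forkhead factors mostly bind DNA as monomers through related motifs, and the subfamilies differ in tissue and in regulation. FoxC and FoxF factors act in mesoderm and in the developing vessel wall, and FoxL and FoxS factors in mesenchyme. FoxO factors are kept out of the nucleus by AKT downstream of insulin and growth factor receptors, and in endothelium they restrain growth. FoxM1 drives genes of mitosis, FoxK and FoxP factors are mostly repressors in many cell types, and FoxA factors open chromatin in endoderm and its epithelia.

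Library totals ran from 17410996 to 22993574 counts, and counts of forkhead genes from 15219 to 24314. Xist and 4 genes of the Y chromosome (Uty, Kdm5d, Ddx3y, Eif2s3y) followed the labelled sex in all 6 libraries. Male replicate 3 stood apart, with a correlation of log2 CPM (the usual depth-scaled count, here on TMM-scaled totals) to another male library as low as 0.977, against least 0.992 among female libraries. The labelled cell type was not borne out by its markers. Of 15 endothelial identity genes, 14 never reached 1 CPM, and 5 of them (Cdh5, Cldn5, Robo4, Tal1 and Tie1) were without a single count. The summed level of that list was 2.56 to 4.39 CPM in female against 4.21 to 6.88 CPM in male libraries, with overlap. Egfl7, which did reach 1 CPM, had 1.47 ± 0.615 CPM in female against 3.58 ± 1.33 CPM in male libraries (SD, n = 3). It was not called (edgeR adjusted p = 0.0622). The other tested gene of the list, Pecam1, went the other way and was not called (0.785 ± 0.166 against 0.554 ± 0.358 CPM). The summed level of 10 fibroblast genes was 11852 to 12719.8 CPM in female against 6517 to 7119 CPM in male libraries. Of the 9 tested genes of this list, 6 were higher in female (Lum, Postn, Dcn, Fbln1, Col3a1 and Pdgfra). Thy1 was lower (-0.50 ± 0.12, edgeR adjusted p = 0.0208), and Col1a1 and Col1a2 were not called. Among all tested genes, 9.68% were higher and 8.62% lower. S100a4 of the same list, not tested, was also lower in female, with 0, 2 and 0 counts against 10, 5 and 9 in male libraries. The part of this list in the forkhead results was not tested.

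Of the 44 forkhead genes, 25 passed the filter on low counts and were tested, 7 had some counts but stayed below it, and 12 had 0 counts in all 6 libraries. Among the 25 tested genes, 7 were higher in female (Foxl1, Foxf2, Foxd2, Foxq1, Foxc1, Foxp2 and Foxd1) and 6 were lower (among them Foxa1, Foxa2, Foxf1, Foxs1 and Foxc2) at an edgeR adjusted p under 0.05, while 12 did not pass. Called genes were thus 52.0% of the tested forkhead genes, against 18.3% of all 14932 tested genes (9.68% higher and 8.62% lower) and 19.4% of 942 other tested genes with a transcription factor family in the table. The median log2 fold change, here always of female over male, was 0.05 for the forkhead genes and -0.01 for all tested genes. The median size of the change regardless of sign was 0.58 and 0.26. A change of at least 2-fold was called for 11 forkhead genes, against 10.3% of all tested genes. All 13 called genes had no overlap between the sexes, which held for 17 of the 25 and for 35.9% of all tested genes. Without male replicate 3, 8 forkhead genes were higher and 9 lower, the added calls being Foxo3, Foxj2, Foxm1 and Foxp4, while the share called among all genes rose to 32.7%. In bulk RNA, fewer cells of a type and less RNA per cell cannot be told apart.

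**Figure D1:**
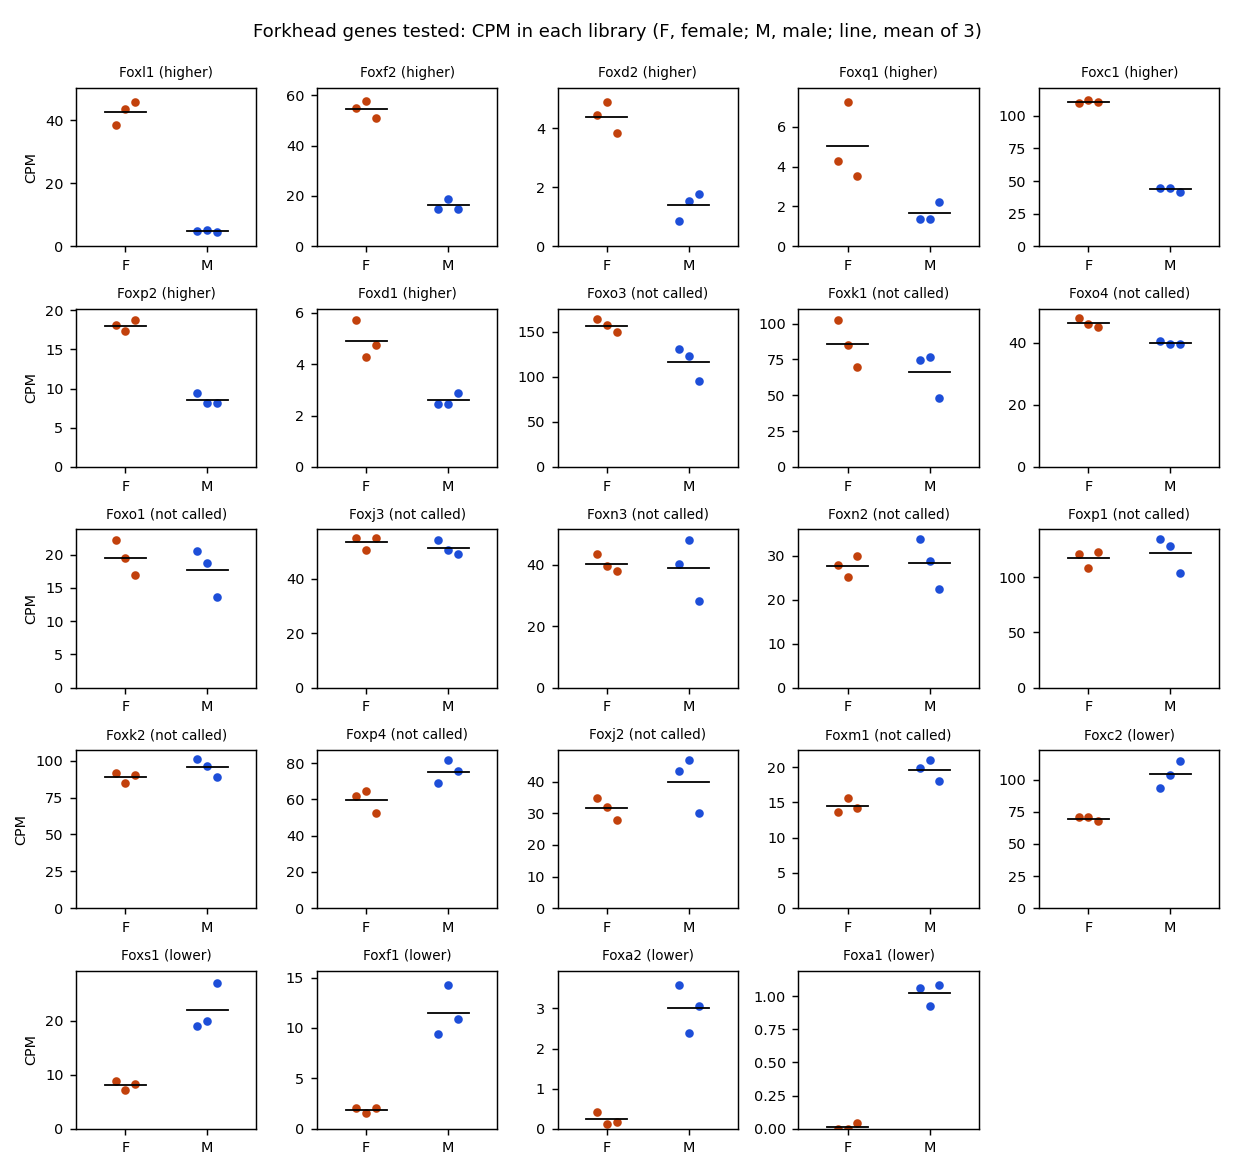
CPM of 24 tested forkhead genes in each of the 3 female (F) and 3 male (M) libraries, on linear axes from 0, ordered by fold change from highest to lowest in female; the line is the mean of 3. The 3 female points lie above or below all 3 male points in each of the 12 called genes shown, while the genes not called overlap or lie close together.

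**Figure D2:**
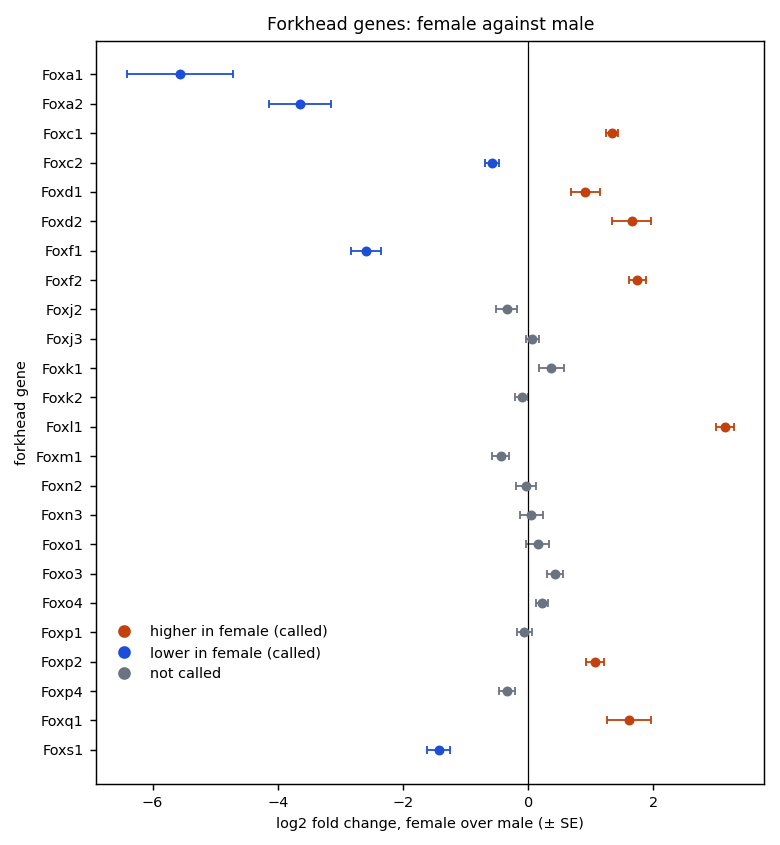
Log2 fold change of female over male with its SE for 24 tested forkhead genes, in alphabetical order. Called values run from -5.56 for Foxa1 to 3.14 for Foxl1, and all 12 genes not called lie between -0.44 and 0.43.

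The FoxF and FoxC genes, Foxl1 and Foxq1 lie in a pair of genomic clusters, and the clusters differed. On chromosome 8, Foxf1 (121084386 to 121088144), Foxc2 (121116171 to 121118895) and Foxl1 (121127940 to 121130644) lie on the plus strand within 46.3 kb. Foxf1, a mesenchymal factor needed for vessels of the yolk sac and lung, stood at 2.05, 1.52 and 2.09 CPM in the female libraries and at 9.39, 14.3 and 10.9 CPM in the male libraries. Every male library was above every female one, and the log2 fold change was -2.60 ± 0.24 (SE, edgeR adjusted p = 5.00e-05). Foxc2, a factor of lymphatic valves and of mesenchyme, stood at 70.6, 70.8 and 67.7 CPM in female against 93.4, 103.8 and 114.8 CPM in male libraries. It had the smallest difference among the called genes (-0.58 ± 0.11, edgeR adjusted p = 0.00500), again without overlap.

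Foxl1, a Hedgehog-responsive gene of mesenchyme below epithelia, went the other way. It stood at 38.6, 43.7 and 45.7 CPM in female against 4.74, 5.16 and 4.55 CPM in male libraries. This was the highest positive fold change of the family (3.14 ± 0.14, 8.83-fold, edgeR adjusted p = 8.52e-07), 9045 bases from Foxc2 and 39796 bases from Foxf1. Fendrr, a long noncoding RNA gene read away from Foxf1 on the minus strand and starting 1276 bases from it, had 2, 1 and 0 counts in female and 108, 123 and 110 counts in male libraries. Its male to female ratio was 118 (95% counting interval 39.96 to 574), and it was called lower in female (edgeR adjusted p = 1.45e-05). Mthfsd, a metabolic gene between Foxf1 and Foxc2, was at 29.3 CPM in female against 28.7 CPM in male libraries (a log2 difference of 0.03 ± 0.12). Gm20388, a model that spans the cluster on the same strand as its Fox genes, had 0 counts in all 6 libraries. The labels do not say whether reads falling on several gene models were counted.

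On chromosome 13, Foxq1 (31556134 to 31560976), Foxf2 (31625816 to 31631403) and Foxc1 (31806633 to 31812476) lie on the plus strand within 256.3 kb, and all of them were higher in female. Foxc1, a factor of mesoderm, eye and smooth muscle, stood at 109.6, 111.8 and 110.2 CPM in female against 44.4, 45.0 and 41.4 CPM in male libraries. The log2 fold change was 1.34 ± 0.10 (edgeR adjusted p = 1.302e-05), and the spread within each sex was small. Foxf2, a factor of fibroblasts, pericytes and gut mesenchyme, stood at 55.0, 57.7 and 50.8 CPM in female against 14.8, 18.9 and 15.0 CPM in male libraries (1.74 ± 0.14, edgeR adjusted p = 1.93e-05). Foxq1, studied in hair and in epithelial transition, was lowly expressed, at 4.29, 7.25 and 3.54 CPM in female against 1.35, 1.37 and 2.22 CPM in male libraries. Its log2 fold change was 1.61 ± 0.35 (edgeR adjusted p = 0.0104), and the call was lost without female replicate 2 (adjusted p = 0.0557) and without male replicate 2 (adjusted p = 0.0546).

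Both noncoding neighbours of this cluster that passed the filter were higher in female as well. The lincRNA gene 1700018A04Rik starts 24 bases from Foxf2 on the opposite strand, and stood at 2.17 ± 0.229 CPM in female against 0.671 ± 0.404 CPM in male libraries (SD, n = 3; a log2 difference of 1.71 ± 0.46, edgeR adjusted p = 0.0294). Gm11377, 3773 bases from Foxq1, had 26, 18 and 31 counts in female and 0, 2 and 0 in male libraries, a ratio of 36.2 (95% counting interval 9.68 to 304). Gm11377 and 1700018A04Rik overlap on opposite strands. With the strand setting unknown, their reads cannot be told apart in the shared stretch. Gmds, an enzyme gene of fucose metabolism that ends 7103 bases from Foxc1, rose by 1.02 ± 0.27 (edgeR adjusted p = 0.0262).

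**Figure D3:**
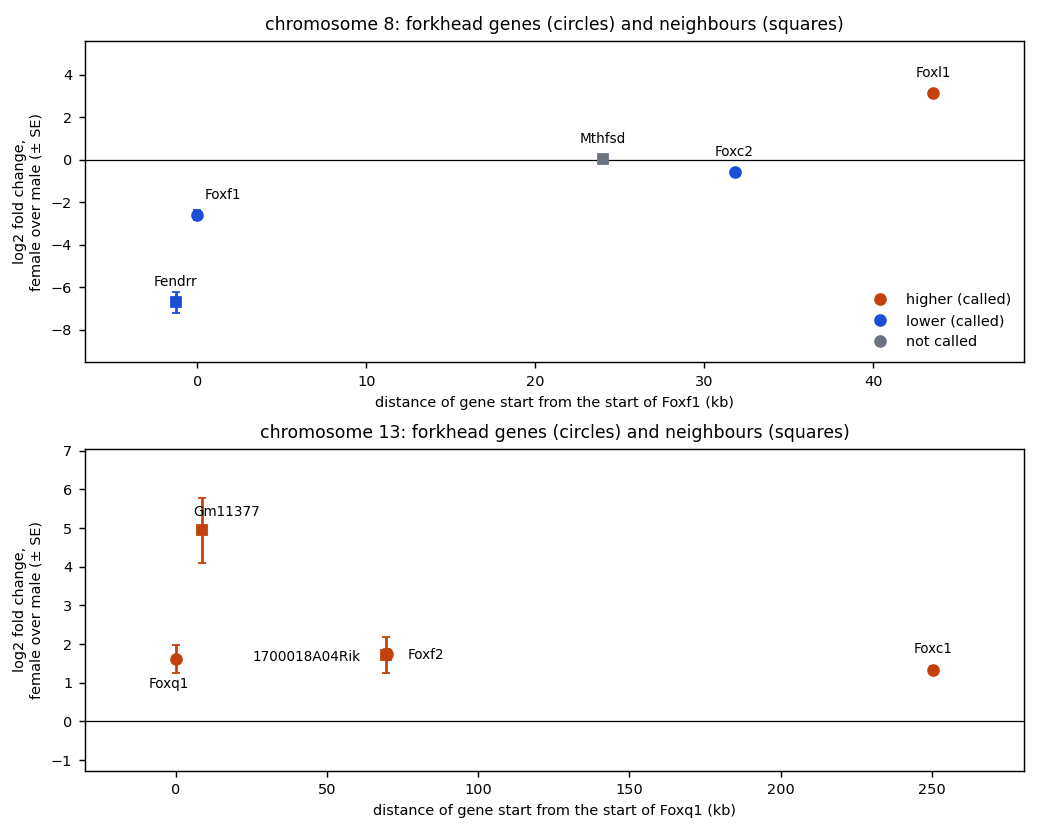
Log2 fold change of female over male with its SE for the tested genes of the chromosome 8 (top) and chromosome 13 (bottom) clusters, against the distance of each gene's start from the start of Foxf1 or Foxq1 in kb; circles are forkhead genes and squares other genes. On chromosome 8 Fendrr, Foxf1 and Foxc2 lie below 0 and Foxl1 at 3.14, while all 5 genes shown on chromosome 13 (Gmds, whose start is farther off, is left out) lie above 0.

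The 250 bases before the RefSeq start of Foxc1 and Foxf2 are shown because these genes rose together in one cluster, and those of Foxd2 because it rose with the noncoding gene that starts beside it. RefSeq promoter entries (build GRCm38.p6) were matched by symbol for 28 of the 44 forkhead genes. Sequences run 5′ to 3′ on the gene's strand, and capitals mark matches on either strand to a GC box (GGGCGG) or a CCAAT box (CCAAT). Foxc1 is at chr13:31806396-31806645 on the plus strand, Foxf2 at chr13:31625566-31625815 on the plus strand and Foxd2 at chr4:114908899-114909148 on the minus strand.
Foxc1: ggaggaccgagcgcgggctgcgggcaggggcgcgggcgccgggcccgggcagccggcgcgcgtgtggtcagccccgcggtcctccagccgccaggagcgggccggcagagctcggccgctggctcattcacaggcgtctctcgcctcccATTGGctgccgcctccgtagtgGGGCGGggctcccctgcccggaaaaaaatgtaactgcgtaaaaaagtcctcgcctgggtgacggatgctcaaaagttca
Foxf2: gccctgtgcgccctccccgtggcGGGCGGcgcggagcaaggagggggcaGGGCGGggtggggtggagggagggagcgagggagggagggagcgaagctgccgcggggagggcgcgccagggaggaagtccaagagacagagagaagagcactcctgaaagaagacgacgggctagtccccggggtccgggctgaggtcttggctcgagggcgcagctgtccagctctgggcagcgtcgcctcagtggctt
Foxd2: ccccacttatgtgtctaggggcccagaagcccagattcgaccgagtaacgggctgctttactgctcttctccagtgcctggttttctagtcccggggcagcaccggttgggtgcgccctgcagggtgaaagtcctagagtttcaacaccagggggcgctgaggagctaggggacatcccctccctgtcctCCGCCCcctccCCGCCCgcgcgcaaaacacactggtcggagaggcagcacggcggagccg

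All 3 windows were rich in G and C, at 70.8%, 71.6% and 64.4%, and held 29, 21 and 16 CpG dinucleotides, against a median of 6 over 32851 RefSeq promoter windows of the same length. A GC box was found in 20 of the 28 forkhead windows and in 32.7% of all windows, and a CCAAT box in 13 of 28 and 33.8%. Windows were also searched on both strands for the forkhead core GTAAACA, found in 1 of 28 (Foxa1) and 3.17% of all, for TATAAA, found in 2 of 28 and 12.4%, and for the Hedgehog effector core GACCACCCA, found in 0 of 28 and 0.225%. Windows of Foxc2, Foxf1, Foxl1, Foxp2, Foxq1 and Foxs1 were not analysed here. The CCAAT and GC box letters share no overlap with each other in the windows shown. Some matched RefSeq starts lay away from the deposited gene start, farthest for Foxn3 (113508 bases), Foxj3 (2657), Foxp1 (1728) and Foxa1 (805). With these windows included, the median CpG number was 18.5 over 6 called forkhead genes, 29 over 8 tested but not called, 15 over 4 below the filter and 7 over 10 silent ones. These are counts of letters in windows and not binding sites.

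Because paralogues went opposite ways, the makeup of the FoxF and FoxC subfamilies differed between the sexes on the scale of CPM per kb of gene length, which allows levels to be set between genes. Foxf2 was 27.3, 38.8 and 24.8 times the level of Foxf1 in the female libraries and 1.61, 1.35 and 1.41 times in the male libraries. Foxf2 thus made up 96.1% to 97.5% of the FoxF level in female and 57.5% to 61.7% in male libraries. The summed FoxF level was 23.8 ± 1.36 CPM per kb in female and 11.6 ± 2.02 CPM per kb in male libraries (SD, n = 3). Foxc1 was 0.724, 0.737 and 0.759 times the level of Foxc2 in female and 0.222, 0.202 and 0.168 times in male libraries. The summed FoxC level was 44.5 ± 0.715 and 45.6 ± 3.68 CPM per kb, with overlap between the sexes.

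**Figure D4:**
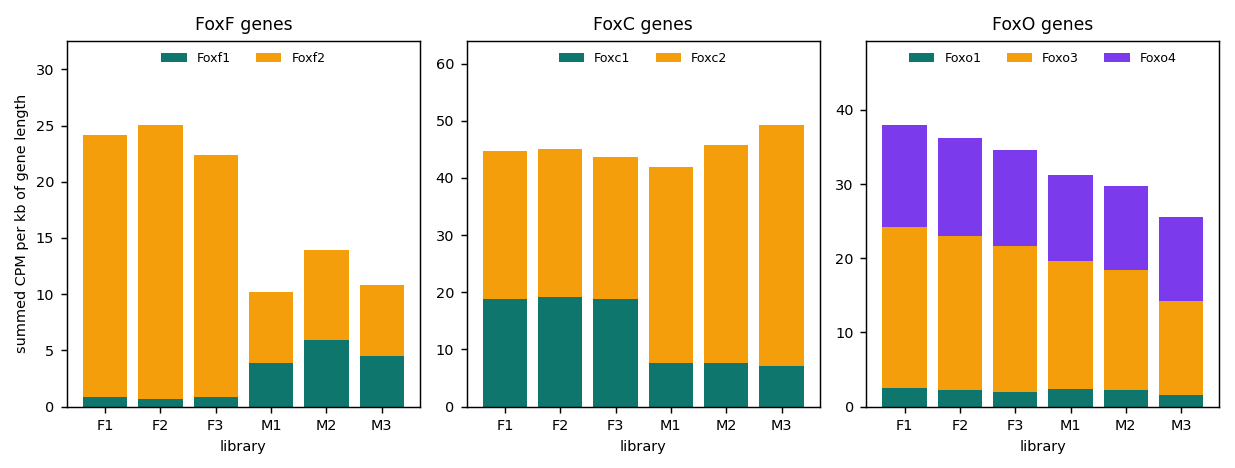
Stacked CPM per kb of gene length in each female (F1 to F3) and male (M1 to M3) library for the FoxF, FoxC and FoxO genes above the filter, on axes from 0. Foxf2 makes up nearly all of the FoxF bar in female libraries, the FoxC bars are of like height with more Foxc1 in female, and Foxo3 and Foxo4 make up most of every FoxO bar.

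The remaining genes higher in female were of the FoxD and FoxP subfamilies. Foxd2, of mesenchyme and kidney (chromosome 4, 114906282 to 114908873), stood at 4.43, 4.89 and 3.84 CPM in female against 0.871, 1.54 and 1.76 CPM in male libraries (1.65 ± 0.31, edgeR adjusted p = 0.00479). Its divergent noncoding neighbour Foxd2os, 384 bases away, rose by 1.304 ± 0.25 (edgeR adjusted p = 0.00470). Foxd1, a marker of kidney stroma and pericyte progenitors (chromosome 13, 98354242 to 98359305, outside the cluster), stood at 5.71, 4.27 and 4.74 CPM in female against 2.47, 2.47 and 2.90 CPM in male libraries. Its call (0.91 ± 0.23, edgeR adjusted p = 0.0216) was lost without female replicate 1 (adjusted p = 0.111), female replicate 3 (0.0610), male replicate 1 (0.0585) or male replicate 2 (0.0878). Foxp2, known for its role in vocal circuits and lung (chromosome 6, 14901349 to 15441977), stood at 18.1, 17.3 and 18.7 CPM in female against 9.48, 8.16 and 8.13 CPM in male libraries (1.07 ± 0.14, edgeR adjusted p = 0.000570). Of the 3 tested FoxP genes Foxp2 had the lowest tested level per kb, at 4.80% to 5.53% of the subfamily in female and 1.89% to 2.38% in male libraries.

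Genes lower in female included factors known from vessel wall and endoderm. Foxs1, expressed in pericytes and smooth muscle (chromosome 2, 152931898 to 152933208), stood at 8.90, 7.14 and 8.29 CPM in female against 19.0, 20.0 and 26.8 CPM in male libraries (-1.43 ± 0.18, edgeR adjusted p = 0.000389). Of 8 smooth muscle markers 4 were tested, with Acta2 lower in female (3.23 ± 0.749 against 20.3 ± 6.01 CPM). The other 3, Smtn, Tagln and Lmod1, did not pass (-0.21, -1.46 and 0.10), where 18.3% of all tested genes were called. Des, not tested, went the other way, with 24, 4 and 28 counts in female and 0, 4 and 0 in male libraries. Myh11, Cnn1 and Myocd had at most 9 counts in a library. The summed level of the 8 markers was 118 to 121 CPM in female against 142 to 176 CPM in male libraries. Most of it was Smtn (112 ± 2.04 and 129 ± 12.6 CPM). The part of these markers in the difference of Foxs1 was not tested.

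The FoxA genes were at low levels, with most of their counts in male libraries. Foxa2 (chromosome 2, 148042877 to 148046969) had 9, 2 and 4 counts in female and 74, 54 and 54 counts in male libraries, and Foxa1 (chromosome 12, 57540628 to 57546916) had 0, 0 and 1 against 22, 21 and 19. The log2 fold change of Foxa2 was -3.64 ± 0.50 (edgeR adjusted p = 0.000633), with 0.231 ± 0.158 CPM in female against 3.01 ± 0.601 CPM in male libraries. The male to female ratio of Foxa1 was 64.2 (95% counting interval 11.1 to 2577), and edgeR called it (adjusted p = 0.001302). Foxa3 was below the filter, with 0 counts in every female library and 6, 18 and 4 counts in the male libraries, so that the female level was at least 9.67-fold lower, taking 3 counts over the 3 libraries as the floor. It was called by DESeq2 (adjusted p = 0.00811) and by edgeR without a filter (adjusted p = 0.00725). Of 8 markers of epithelia and endoderm, all stayed under 1 CPM in every library, and Hnf4a, Cldn4, Krt5 and Krt14 had 0 counts in all 6. Their summed level was 0.228 to 0.394 CPM in female against 0 to 0.455 CPM in male libraries.

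Of the 56 genes within 100 kb of a called forkhead gene, themselves not forkhead genes, 16 were tested and 6 were called (37.5%, against 18.3% of all tested genes). They included Gmds, 1700018A04Rik, Foxd2os, Gm11377 and Fendrr, and 5 of the 6 are noncoding. All 6 moved in the direction of the nearest called forkhead gene, but Gmds, 1700018A04Rik and Gm11377 all lie by the cluster on chromosome 13. Of these, 1700018A04Rik and Gm11377 also overlap each other. Fendrr is also within 100 kb of Foxl1, which was called the other way. The 10 tested neighbours that did not pass included Mthfsd and Mipol1, the latter 43429 bases from Foxa1.

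The FoxO genes did not pass the test. Foxo3, the most abundant of them, stood at 163, 157 and 149 CPM in female against 130.5, 123 and 95.7 CPM in male libraries, without overlap (0.43 ± 0.13, edgeR adjusted p = 0.0503). It was called under 7 of 13 alternatives, among them DESeq2 (adjusted p = 0.0361) and the fit without male replicate 3 (adjusted p = 0.0136). Foxo4, which is X-linked (101254528 to 101260873), stood at 48.0, 46.0 and 45.1 CPM in female against 40.6, 39.4 and 39.5 CPM in male libraries (0.22 ± 0.10, edgeR adjusted p = 0.190; 0.0230 by limma-voom with quality weights). Foxo1, the FoxO member best known in endothelium, had 19.6 ± 2.62 CPM in female against 17.6 ± 3.596 CPM in male libraries, with overlap (0.15 ± 0.18, edgeR adjusted p = 0.650). Per kb of length, Foxo3 made up 56.9% to 57.2% of the FoxO level in female and 49.5% to 55.1% in male libraries. The summed FoxO level, Foxo6 included, was 36.3 ± 1.62 CPM per kb in female and 28.9 ± 2.91 CPM per kb in male libraries, lowest in male replicate 3.

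Foxm1, the mitotic factor, was at 13.7, 15.6 and 14.2 CPM in female against 19.8, 21.0 and 18.03 CPM in male libraries. The sexes did not overlap, and the gene missed the threshold (-0.44 ± 0.14, edgeR adjusted p = 0.0542; 0.0104 without male replicate 3). The broadly expressed FoxK genes overlapped between the sexes. Foxk2 had 89.0 ± 3.79 CPM in female against 95.7 ± 6.13 CPM in male libraries (-0.10 ± 0.10), and Foxk1 85.8 ± 16.2 and 66.4 ± 16.1 CPM (0.37 ± 0.20, edgeR adjusted p = 0.257). Foxp1 had 117 ± 8.02 and 122 ± 16.6 CPM (-0.06 ± 0.13), and Foxp4 59.5 ± 6.51 and 75.3 ± 6.36 CPM (-0.34 ± 0.12, edgeR adjusted p = 0.0912). Foxj2, Foxj3, Foxn2 and Foxn3 overlapped between the sexes, with log2 fold changes of -0.35, 0.07, -0.04 and 0.05. The antisense gene Gm26826 overlaps Foxj2 by 701 bases, and the opposite-strand gene Frg2f1 overlaps Foxj3 by 2526 bases. With the strand setting unknown, reads of such pairs cannot be told apart where they overlap. All 12 genes not called had fitted differences of under 1.5-fold in either direction, and their standard errors ran up to 0.20. Of all 25 tested genes, 14 had their lowest male value in male replicate 3, against 41.3% of all tested genes.

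Per kb of length, Foxc2 had the highest level of the family in both sexes, at 25.6 ± 0.627 CPM per kb in female and 38.2 ± 3.93 CPM per kb in male libraries. In female libraries Foxf2 (23.1 ± 1.47), Foxo3 (20.7 ± 0.922), Foxc1 (18.9 ± 0.197), Foxk2 (16.9 ± 0.721) and Foxl1 (15.8 ± 1.35 CPM per kb) followed. The ranges of 1 SD either side of the mean overlapped for Foxk2 and Foxl1, and only just for Foxf2 and Foxo3. Foxf2 was above Foxo3 in every female library (23.3, 24.4 and 21.5 against 21.6, 20.7 and 19.7 CPM per kb). In male libraries Foxk2 (18.2 ± 1.17), Foxs1 (16.7 ± 3.27), Foxo3 (15.4 ± 2.42) and Foxp4 (15.3 ± 1.29 CPM per kb) followed. The range of 1 SD either side of each of these means overlapped that of the next. Foxl1 was in place 6 of 25 in female and 19 in male, Foxf2 in place 2 and 11, and Foxs1 in place 11 and 3.

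Silent in all 6 libraries were Foxb1, Foxb2, Foxd3, Foxe1, Foxe3, Foxi1, Foxi2, Foxi3, Foxn1, Foxn4, Foxr1 and Foxr2. They include Foxn1, the factor of thymic epithelium, Foxe1 of thyroid, Foxe3 of the lens, Foxi1 of ionocytes and Foxd3 of neural crest. A count of 0 in a library allows up to 0.128 to 0.171 CPM, taking 3 counts as the floor, which covers counting error only. Foxe3 lies close to Foxd2 and had 0 counts although Foxd2os, between them, had 115 to 158 counts in female and 35 to 70 in male libraries. Whole subfamilies were silent for FoxB, FoxE, FoxI and FoxR.

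The 7 genes with counts below the filter had 4 to 39 counts over all libraries and at most 0.794 CPM in any. Besides Foxa3 they were Foxd4 and Foxh1, with 7 and 5 counts in female replicate 3 only, Foxl2, a factor of the ovary with 0, 1 and 3 counts in female and 0 in male libraries (overlapped by Foxl2os, with 0, 3 and 0 in female), Foxj1, Foxo6 and Foxp3. Foxj1, which drives motile cilia, had 5, 0 and 9 counts in female and 2, 6 and 0 in male libraries, with overlap. Of 9 genes of motile cilia in the table, Dnah5, Tekt1 and Ccdc153 had 0 counts in all 6 libraries, and only Ccdc39 (7.49 ± 1.48 CPM in female, 7.59 ± 0.426 in male) and Spag6 (1.28 ± 1.23 and 1.51 ± 0.453) were tested, neither called. Their summed level was 7.14 to 10.1 CPM in female against 8.87 to 10.6 CPM in male libraries. Foxp3, the X-linked factor of regulatory T cells, had 9, 6 and 15 counts in female and 1, 8 and 0 in male libraries, with overlap. Its span overlaps Flicr and Gm36995, which had counts, and also the opposite-strand gene Ccdc22, by 1435 bases. Of 7 genes of regulatory T cells, Cd3e, Il2ra, Ctla4 and Ptprc had 0 counts in all 6 libraries, Cd3g had 2 counts in all and Cd4 at most 10 in a library. Ikzf2, not called, with 6.64 ± 1.36 CPM in female against 8.66 ± 2.81 CPM in male libraries, made up most of the summed level of 5.12 to 7.95 CPM in female against 5.80 to 11.4 CPM in male libraries.

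Genes known to act with or below forkhead factors were read from lists. The lists share some genes, so their counts are not separate. Irs2 and Insr were in both FoxO lists, and Skp2 was among FoxO regulators and FoxM1 targets. Of 24 tested genes known as FoxO targets, 7 were higher in female, 3 were lower and 14 did not pass, where 9.68% of all tested genes were higher and 8.62% lower. The median log2 fold change was 0.06, against -0.01 for all tested genes. The members with the smallest p were Angpt2, a vessel-destabilising ligand (52.8 ± 1.63 CPM in female, 1.80 ± 0.346 in male), Spry2, an inhibitor of receptor signalling (1.57 ± 0.11, edgeR adjusted p = 6.96e-06), Pdk4, a brake on pyruvate oxidation (-1.12 ± 0.14, edgeR adjusted p = 0.000281), and Gadd45a of the stress response (1.36 ± 0.17, edgeR adjusted p = 0.000320). Without male replicate 3, a fit that called 16.2% of all genes higher and 16.4% lower, 8 targets were higher and 6 lower. Of 23 FoxO regulators, 2 were higher (Mdm2 by 0.49 ± 0.10, Sirt1 by 0.46 ± 0.13), 1 was lower (the kinase gene Sgk1, -0.79 ± 0.11, edgeR adjusted p = 0.000606) and 20 did not pass (median -0.01; 18.3% of all tested genes were called). Without male replicate 3, where 32.7% of all genes were called, 2 regulators were higher and 5 lower.

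By edgeR none of 20 FoxM1 targets was called, against 18.3% of all tested genes. Their median log2 fold change was 0.27, against -0.01 for all tested genes. DESeq2 called 0 of them (16.4% of all genes), limma-voom with quality weights 11 higher (22.1% of all genes were higher there), and edgeR without male replicate 3 called 4 higher (16.2% of all genes). Foxm1 itself had a negative fold change. Of 10 tested genes of the Hedgehog pathway, which acts above Foxf1, Foxf2 and Foxl1 in gut mesenchyme, 3 were higher, 1 was lower and 6 did not pass (median 0.11; 18.3% of all tested genes were called). The transcription factor gene Gli2 rose by 1.96 ± 0.25 (edgeR adjusted p = 0.000460) and the co-receptor gene Cdon by 1.22 ± 0.16 (edgeR adjusted p = 0.000495), while the co-receptor gene Boc fell by 1.08 ± 0.12 (edgeR adjusted p = 0.000158). The target genes Ptch1 (-0.60 ± 0.22, edgeR adjusted p = 0.1005) and Gli1 (0.66 ± 0.56, edgeR adjusted p = 0.491) did not pass, and the ligand gene Shh had 0 counts in all 6 libraries. Without male replicate 3, 3 Hedgehog genes were higher and 3 lower, in a fit that called 32.7% of all genes.

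Of 10 tested vascular genes known as FoxC or FoxF targets, 3 were higher, 3 were lower and 4 did not pass (median 0.05; 18.3% of all tested genes were called). Among those higher, Angpt2 was also counted with the FoxO targets and Pdgfra with the fibroblast genes. The chemokine receptor gene Cxcr4 had 68, 72 and 95 counts in female and 1, 3 and 2 in male libraries (5.16 ± 0.45, edgeR adjusted p = 3.59e-05). The integrin gene Itgb3 fell by 2.38 ± 0.12 (edgeR adjusted p = 1.20e-06) and Notch4 by 2.12 ± 0.19 (edgeR adjusted p = 4.08e-05). Of the 14 genes of this list, 7 stayed under 1 CPM in every library. Among 12 FoxK partners the corepressor gene Sin3b was called (-0.67 ± 0.13, edgeR adjusted p = 0.00450) and 11 did not pass, where 18.3% of all tested genes were called. Limma-voom with quality weights called 4 FoxK partners higher and 3 lower (44.2% of all genes were called). EdgeR without male replicate 3 called 2 higher and 2 lower (32.7% of all genes were called). Of 12 FoxP partners edgeR called 0, DESeq2 0, and limma-voom with quality weights 1 higher and 2 lower. Of all genes, these fits called 18.3%, 16.4% and 44.2%.

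**Figure D5:**
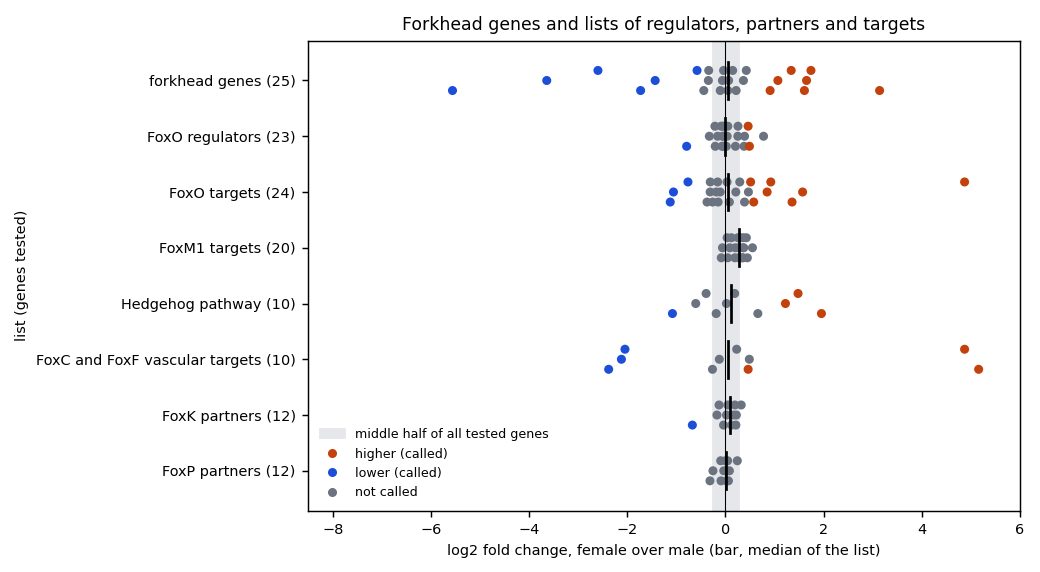
Log2 fold change of female over male for each tested forkhead gene and each tested gene of the 7 lists, with the number tested in brackets, the list's median as a bar and the range that holds the middle part of all tested genes (25th to 75th percentile) in grey. Forkhead genes and vascular targets spread widely on both sides of 0, while all FoxM1 targets and FoxP partners are grey points (not called).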

How the data were processed

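The authors deposited whole-number read counts per gene for 54532 genes and 6 libraries, without normalization. Tools named in the submitters' processing notes are HISAT2 2.0.5 and featureCounts 1.5. Per the labels, cDNA was made by either a strand-marking or a non-marking way, and neither the choice nor the genome build is stated. Of the 44 forkhead genes, 41 had the same coordinates in GENCODE M21 (GRCm38). The deposited gene length in bases was used for CPM per kb.

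Groups follow the labelled sex. The test was edgeR 4.0.16 under R 4.3.3 (robust quasi-likelihood F test, TMM, filterByExpr with a minimum count of 10), which left 14932 genes. P-values were adjusted by Benjamini-Hochberg over all of them, and genes were called under 0.05. The fit was tested on simulated data. No set test was run. Ratios with 1 to 3 counts in a sex carry exact binomial 95% intervals, for counting error only. Libraries of a sex differed by more than sampling noise (chi-square per degree of freedom 7.43 to 70.8).

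Other settings tried were DESeq2 1.42.0, limma-voom with quality weights (limma 3.58.1), RLE scaling, upper quartile scaling, no low-count filter or a mean of 50 counts, a replicate block, leaving out single libraries, and a threshold of 0.01. Members and lists were chosen with earlier results of these data known. Forkhead genes were named, with called neighbours within 100 kb and up to 4 called genes per list; some genes under this rule are not reported here. Other named genes were chosen after their values were seen.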

Additional observations from a re-analysis of the deposited data

How the results depend on the processing

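Of the 13 called forkhead genes, 11 kept their call and direction under every alternative that tested them. Foxa1 and Foxa2 were not tested at a mean of at least 50 counts. Leaving out each library gave 5 to 8 forkhead genes higher and 6 to 9 lower, and 967 to 2508 of all genes higher and 903 to 2543 lower, with the highest values without male replicate 3. By limma-voom with quality weights 3305 genes were higher and 3289 lower, and an adjusted p under 0.01 left 900 and 835. The cause was not tested. Neither DESeq2, the scalings nor testing without a filter moved the forkhead counts by over 1.5 times. Limma-voom called 9 forkhead genes higher and 9 lower, adding Foxj2, Foxm1, Foxo3, Foxo4 and Foxp4, and DESeq2 and the fit without a filter each added Foxa3 and Foxo3.

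Signs turned only for forkhead genes that were not called. Foxn3 had a log2 fold change of -0.21 with limma-voom, and between -0.14 (without male replicate 3) and 0.22 (without male replicate 2) when a library was left out, with -0.02 without female replicate 1. Foxn2 ran from -0.18 (without male replicate 3) to 0.10 (without male replicate 1), with 0.02 without female replicate 2. Foxp1 ran from -0.17 to 0.0143 and Foxo1 from -0.0071 to 0.27, each between the fits without male replicates 3 and 1.

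The labels do not say whether replicate numbers pair the samples. Deviations from the mean of each sex correlated at 0.206, -0.00405 and 0.152 for same-numbered libraries, and at -0.274 to 0.184 for unlike numbers. With 3 libraries per sex, whose deviations sum to 0, these values cannot decide whether the samples are paired. With the replicate block, 9 forkhead genes were higher and 6 lower, adding Foxk1 (adjusted p = 0.0476) and Foxo3 (adjusted p = 0.0193), and 1619 of all genes were higher. Foxa1 and Foxa3 had 63 and 28 counts in all, so their values are coarse.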
